A study of Arabidopsis thaliana with 36 samples.

Results

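The 94 genes described here were lowered in both Arabidopsis thaliana mutants of the MAS complex and stayed near wild type in 6 mutants of the related BAS and SAS complexes. They were chosen from 32548 measured genes by their means. Each had a wild-type mean of at least 50 adjusted reads, at most 0.5 times the wild-type mean in both MAS mutants, and 0.77 to 1.3 times that mean in each of the 6 others, with 1 added to every mean. Adjusted reads are reads on a gene after all libraries are brought to a common size, a library holding 23094192 reads on genes on average. The low levels in the MAS mutants and the near-normal levels in the 6 others are therefore the choice itself and are given without a test.

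SWI/SNF complexes use ATP to slide or evict nucleosomes, which opens or closes DNA to transcription factors and to RNA polymerase. In Arabidopsis the complexes come in 3 kinds, named after their ATPases: MAS is built on MINU1 or MINU2, BAS on BRM and SAS on SYD, and each kind carries its own accessory subunits beside shared ones. MINU1 and MINU2 are known to be needed together for a normal embryo and for stable meristems.

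Whole seedlings were taken at 12 days of age from MS plates, under days of 16 h in the light at 23 °C and nights of 8 h at 22 °C. Each of the 12 genotypes gave 3 libraries. The MAS mutants were minu12 (minu1-/-minu2-/-) and pms2ab (pms2a-/-pms2b-/-). Outside the choice stood swp73b (swp73b-/-), bcl7ab (bcl7a-/-bcl7b-/-) and an3 (an3-/-). The BAS mutants were brm (brm-/-), brd1213 (brd1-/-brd2-/-brd13-/-) and brip12 (brip1-/-brip2-/-), and the SAS mutants were syd (syd-/-), swi3d (swi3d-/-) and sys123 (sys1-/-sys2-/-sys3-/-). Wild type (wt) was the control for all of them. The placing in complexes comes from knowledge of the study, and the labels name neither alleles nor an accession background. All libraries came from whole seedlings, so that fewer cells of a type and less RNA per cell cannot be told apart.

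Recovered reads on genes were between 21070583 and 23761910 per library. Libraries of 1 genotype correlated at 0.981 to 0.990 in log2 values over 23297 genes. Nothing in the labels ties the 3 libraries of a genotype to separate plantings, and the p-values measure only how much such samples varied, perhaps for technical reasons. In minu12, MINU1 (listed as ATCHR12) stood at 46.8% of its wt mean and MINU2 (listed as CHR23) at 13.3%. In swp73b, SWP73B (listed as CHC1) stood at 26.4% of wt. In bcl7ab, AT4G22320 and AT5G55210, taken as BCL7A and BCL7B from knowledge of the study, stood at 4.1% and 1.2%. AN3 averaged 154 ± 8.65 adjusted reads in the libraries labelled an3 and 151 ± 43.0 in wt (SD, n = 3 each), so its transcript level does not check that label. In the mutants that set the band, BRM stood at 6.4% of wt in brm and SWI3D (listed as CHB3) at 17.8% in swi3d. SYD averaged 5553 ± 691 adjusted reads in the libraries labelled syd and 3364 ± 313 in wt (SD, n = 3 each), 165.0% of wt. Its level goes against that label unless the allele leaves a transcript, and the labels name no allele. With the libraries labelled syd left out of the band, an alternative chosen after seeing the data, the choice held 100 genes, the 94 among them. In swp73b, 86 of the 100 were lower than wt and none higher (25.5% and 23.9% of all genes tested; limma, adjusted p under 0.05). In bcl7ab, 40 were lower and 14 higher (14.2% and 16.4% of all genes). In the libraries labelled an3, 1 was lower and none higher (5.74% and 5.03% of all genes). The PMS2 genes are not analysed here.

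The choice was narrow. Of the 17543 genes with a wt mean of at least 50, 800 were at or under 0.5 in both MAS mutants, and 706 of these left the band of 0.77 to 1.3 in at least 1 of the 6 BAS and SAS mutants. In brm, 616 of the 706 were outside the band, 594 of them below it. Each of the other mutants also had many of the 706 outside, from 421 in syd to 493 in swi3d. Only 62 of the 706 were outside in 1 mutant alone. A further 6072 genes stayed in the band without being lowered in both MAS mutants, and they serve below as the nearest comparison. The genes just inside the limit of 0.5 were AT2G17030 and AT1G55880 (0.499 each in minu12) and FUS9 (0.499 in both). Just outside were AT4G30310 (0.501 in pms2ab) and AT5G01670 and AT4G01897 (0.501 each in minu12). At the edge of the band, AT3G10405 (0.77), AT4G06701 (0.771) and AT2G32795 (1.29) were just inside, and AT3G60150 (1.301), AT2G31440 (0.767) and AT1G22540 (0.767) just outside. Of the 94 members, 91 code for proteins and 3 are listed as noncoding RNAs. All 94 passed the filter on low values, a mean of at least 1 over all libraries, since the choice itself asks for more.

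The stretches of DNA in front of some members are shown first, because the distance to the gene before them is among the features described below. For 24 of the 91 protein-coding members, the gene model upstream lies on the same strand and ends 0 to 100 bases before the member's start. The following are whole gaps between such models, taken with their borders from the TAIR10.1 assembly and its RefSeq annotation, on the member's strand and 5′ to 3′, with the TATA-box letters TATAAA in capitals where they occur on either strand. They are the 4 longest of this kind among the 12 most lowered members, followed by PnsL1 and CDC48C.
AT5G54090, chr5:21952595-21952646, minus strand: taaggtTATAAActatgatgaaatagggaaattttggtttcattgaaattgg
AT4G11410, chr4:6947414-6947475, minus strand: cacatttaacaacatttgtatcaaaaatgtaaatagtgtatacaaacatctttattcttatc
AT4G31115, chr4:15130022-15130074, plus strand: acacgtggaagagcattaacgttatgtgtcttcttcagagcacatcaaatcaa
WNK6, chr3:6457614-6457676, minus strand: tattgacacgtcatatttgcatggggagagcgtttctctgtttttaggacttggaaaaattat
PnsL1, chr2:16476142-16476197, plus strand: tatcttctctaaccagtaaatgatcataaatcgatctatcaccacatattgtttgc
CDC48C, chr3:231518-231609, plus strand: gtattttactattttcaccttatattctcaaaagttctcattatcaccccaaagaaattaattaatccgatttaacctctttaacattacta

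RBCS2B, MAF1 and MAF3, which have a distant upstream neighbour, are shown for contrast by the 250 bases before their start. RBCS2B is the most abundant member. The capitals mark the G-box CACGTG and the I-box core GATAA on either strand, letters known from light-regulated plant promoters. The window holds 1 and 4 of them, none overlapping.
RBCS2B, chr5:15382072-15382321, minus strand: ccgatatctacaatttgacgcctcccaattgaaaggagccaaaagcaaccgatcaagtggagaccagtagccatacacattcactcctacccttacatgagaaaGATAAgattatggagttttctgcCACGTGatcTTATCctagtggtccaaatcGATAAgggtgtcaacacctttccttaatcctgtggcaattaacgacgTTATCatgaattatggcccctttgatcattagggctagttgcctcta
MAF1 and MAF3 are paralogous MADS-box floral repressors, and the capitals mark runs of at least 12 bases that occur in both windows. They cover 50 of the 250 bases of MAF3 and 49 of the 250 bases of MAF1.
MAF3, chr5:25987059-25987308, plus strand: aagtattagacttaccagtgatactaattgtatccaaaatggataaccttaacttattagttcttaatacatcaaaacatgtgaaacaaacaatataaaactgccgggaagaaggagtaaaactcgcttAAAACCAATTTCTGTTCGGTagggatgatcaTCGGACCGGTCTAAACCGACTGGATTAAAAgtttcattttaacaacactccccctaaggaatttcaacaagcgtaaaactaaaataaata
MAF1, chr1:28955233-28955482, plus strand: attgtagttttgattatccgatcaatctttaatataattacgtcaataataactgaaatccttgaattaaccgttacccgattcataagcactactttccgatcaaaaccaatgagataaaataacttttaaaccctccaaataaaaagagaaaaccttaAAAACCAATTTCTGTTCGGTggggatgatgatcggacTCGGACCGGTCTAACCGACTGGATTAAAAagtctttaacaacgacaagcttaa

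Over the 94 members, the median level was 40.5% of wt in minu12 (range 11.6% to 49.9%) and 39.0% in pms2ab (range 8.2% to 49.9%). All 3 libraries of minu12 and all 3 of pms2ab lay below all 3 wt libraries for each of the 94. The rule used these contrasts, in which 24.8% of the 23297 tested genes were called lower in minu12 and 29.8% in pms2ab (48.9% and 58.8% in either direction), and nothing is read from the count. The medians in the 6 BAS and SAS mutants ran from 96.3% in brm to 103.8% in brip12.

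**Figure D1:**
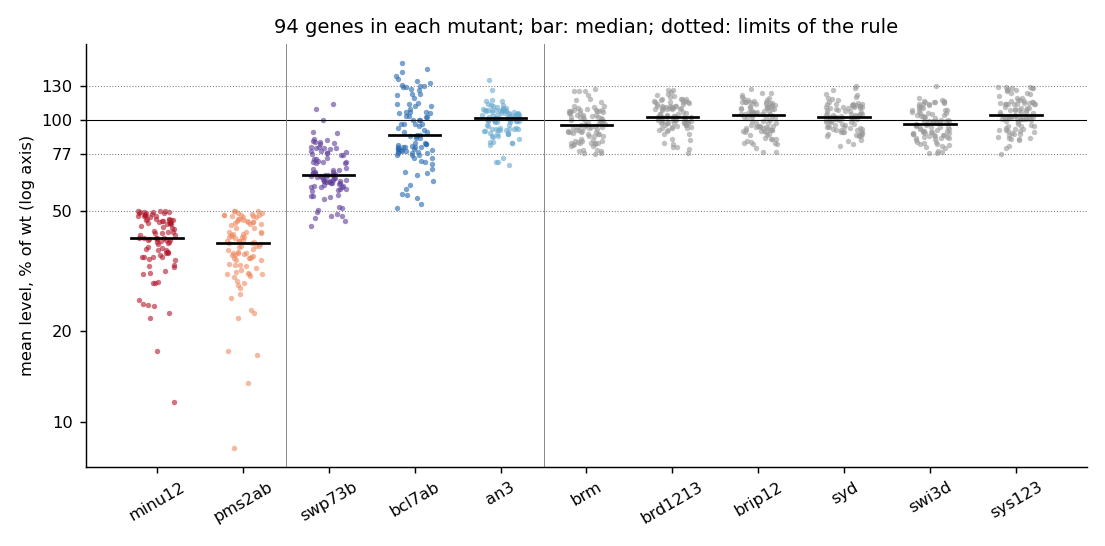
Mean level of each of the 94 genes in each mutant as a percentage of the wt mean (log axis), with 1 added to every mean; bars are medians, and dotted lines mark the 50%, 77% and 130% limits of the choice. The minu12 and pms2ab points lie under 50% and the 6 grey mutants inside the band by choice; swp73b, bcl7ab and an3 were not used in it and have medians of 65.8%, 88.9% and 101.3%.

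The most lowered member by the mean of both log2 ratios was AT5G54090, annotated as a DNA mismatch repair protein MutS, type 2, a family of ATPases that bind irregular DNA. It had 36.8, 30.9 and 31.8 adjusted reads in minu12 and 5.6, 24.6 and 15.8 in pms2ab, against 208, 216 and 173 in wt. Its means were 17.1% of wt in minu12 and 8.2% in pms2ab, with all pms2ab libraries below all minu12 libraries. In swp73b it had 96.2, 106 and 100 adjusted reads, between the MAS mutants and wt without overlap, and the BAS and SAS mutants held it at 100.2% to 114.8%.

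AT4G11410, a protein of the NAD(P)-binding Rossmann-fold superfamily, had 32.9, 38.7 and 43.9 adjusted reads in minu12 and 116, 115 and 104 in pms2ab, against 341, 356 and 323 in wt. Here the order of the MAS mutants was the other way round, with minu12 at 11.6% and pms2ab at 33.0% of wt, and the 2 groups of libraries did not overlap. AT4G30910, a cytosol aminopeptidase family protein, was likewise lower in minu12 (24.4% of wt) than in pms2ab (46.0%). Of the 94 members, 66 had overlapping minu12 and pms2ab libraries, 21 had all minu12 libraries above those of pms2ab and 7 had them all below. This count describes levels that the choice used and was not tested.

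MAF3, which like its relative FLC delays flowering, had 85.2, 83.1 and 75.5 adjusted reads in minu12 and 23.9, 41.3 and 33.5 in pms2ab, against 289, 234 and 231 in wt. MAF1 (also known as FLM), the temperature-dependent floral repressor, had 226, 340 and 239 in minu12 and 216, 260 and 183 in pms2ab, against 689, 586 and 644 in wt. In both genes each MAS library lay below each wt library, and MAF3 was lower in pms2ab than in minu12 without overlap while MAF1 was not. MAF2 (listed as AGL31), which ends 873 bases before the start of MAF3, averaged 882 ± 81.5 adjusted reads in minu12 and 763 ± 28 in pms2ab, against 952 ± 98.1 in wt (SD, n = 3 each). Its log2 change was -0.11 ± 0.09 (SE) in minu12, which did not pass limma's test (adjusted p = 0.352), and -0.32 ± 0.09 in pms2ab, which did (adjusted p = 0.00479). MAF2 and MAF3 are similar in sequence, so reads may have been split between them.

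WNK6, a protein kinase of the with-no-lysine family, had 97.8, 79.2 and 100 adjusted reads in minu12 and 94.1, 78.3 and 96.8 in pms2ab, against 379, 387 and 388 in wt. It stood at a like level in both MAS mutants, 24.2% and 23.5% of wt. AT4G31115, a DUF1997 protein, had 92.0, 95.7 and 96.6 in minu12 and 55.6, 81.6 and 60.3 in pms2ab, against 424, 387 and 361 in wt. The remaining 6 of the 12 most lowered members were AT4G06701 and AT2G32795, both listed as other RNA, the RING-finger gene AT3G62970, the AIG2-like AT4G31310, the pentatricopeptide repeat gene AT5G27300 and AT1G09195, listed as a Ppx-GppA phosphatase. They stood at 22.1% to 36.3% of wt in minu12 and 22.0% to 31.2% in pms2ab.

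RBCS2B, which encodes a small subunit of Rubisco, the carbon-fixing enzyme of the chloroplast, was the most abundant member, with 30825 adjusted reads per kb of transcript in wt. It had 12007, 16674 and 11078 adjusted reads in minu12 and 4202, 5023 and 5168 in pms2ab, against 33754, 31431 and 21279 in wt. The pms2ab libraries were the lowest, and the third wt library was well below the other two. Its neighbouring copy RBCS3B averaged 80.8% of wt in minu12 and 48.8% in pms2ab, and RBCS1A 99.7% and 86.5%. The copies are near-identical in sequence, so reads may have been split between them by the counting.

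IBM1, a histone demethylase known to keep repressive H3K9 methylation out of gene bodies, had 180, 209 and 218 adjusted reads in minu12 and 179, 239 and 201 in pms2ab, against 519, 524 and 462 in wt. ELF4, a component of the evening complex of the circadian clock, had 113, 123 and 87.1 in minu12 and 93.9, 115 and 121 in pms2ab, against 208, 213 and 275 in wt. For both genes the MAS mutants were alike within the spread of their libraries, and all MAS libraries lay below wt.

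**Figure D2:**
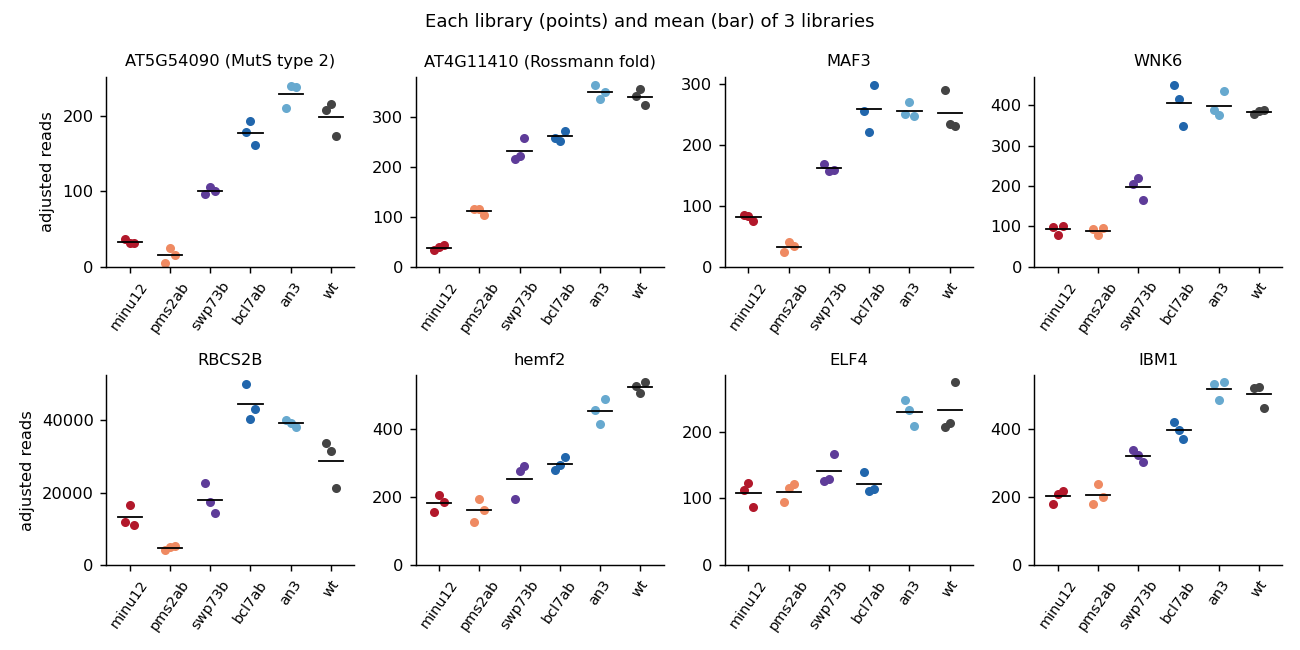
Adjusted reads of 8 of the 94 genes in each library of minu12, pms2ab, swp73b, bcl7ab, an3 and wt; points are libraries, bars are means of 3, and each axis starts at 0. RBCS2B in bcl7ab averaged 44471 adjusted reads against 28821 in wt, and the swp73b means lie between those of the MAS mutants and wt in all 8 panels. The choice held the MAS mutants at or under 50% of wt and left swp73b free, which favours that order.

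Several members act in plastids. PnsL1, a subunit of the chloroplast NDH complex that feeds electrons back into the plastoquinone pool, averaged 1108 ± 186 adjusted reads in minu12 and 810 ± 145 in pms2ab, against 2595 ± 514 in wt (SD, n = 3 each). APE1, named for acclimation of photosynthesis to the environment, stood at 46.7% and 46.0% of wt in minu12 and pms2ab. The lumenal protease gene DEG5 stood at 45.1% and 48.6%, the iron-sulfur assembly gene CPISCA at 38.7% and 36.1%, and hemf2, annotated as a coproporphyrinogen III oxidase of tetrapyrrole synthesis, at 35.1% and 30.9%. AT4G39040 (CFM4), which has an RNA-binding CRM domain, stood at 40.5% and 34.3%. They were picked for their annotation after their levels were known, and no share of plastid genes was tested.

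Some families had more than 1 member. The 4 Rossmann-fold genes AT4G11410, AT1G72640, AT4G20760 and AT4G31530 ranged from 11.6% to 43.6% of wt in minu12 and 27.8% to 45.3% in pms2ab. The 3 genes of the disease resistance class with NBS and LRR domains, AT4G16900, AT5G40060 and TTR1, which are immune receptors or their relatives, ranged from 36.4% to 48.1% and 37.4% to 47.9%. The pentatricopeptide repeat genes AT5G27300 and AT3G16710, of a family that binds organelle RNA, ranged from 34.4% to 36.3% and 22.9% to 36.5%. The phosphoglycerate mutase family genes AT5G22620 and AT5G62840 ranged from 31.1% to 43.8% and 28.9% to 47.0%. Members also included ING1, whose family reads methylated histone H3, FUS9 (also known as COP10), part of the machinery that represses light development in the dark, and CDC48C, an AAA ATPase.

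The members with the highest levels after RBCS2B and PnsL1 were MEE31, a mannose-6-phosphate isomerase on the route to ascorbate, APE1, AT4G39040, AT1G28140, AT4G31530 and the ABC transporter ABCG7. MEE31 averaged 1186 ± 42.6 adjusted reads in minu12 and 973 ± 96.8 in pms2ab, against 2387 ± 191 in wt. ABCG7 averaged 500 ± 24.4 and 516 ± 51.9, against 1257 ± 201 in wt (SD, n = 3 each). AT1G28140 and AT1G28150 are the 1 pair of members that are direct neighbours; they stood at 45.6% and 32.9% of wt in minu12 and at 39.8% and 30.8% in pms2ab.

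None of swp73b, bcl7ab and an3 was used to choose the genes, so their levels can be tested, although the wt libraries they are set against were used. SWP73B and the BCL7 proteins are subunits of SWI/SNF complexes, and AN3 is a coactivator known to bring SWI/SNF to growth-regulating factors. In swp73b, 82 of the 94 members were lower than wt by limma's moderated test at an adjusted p under 0.05 and none was higher, where 25.5% of all genes tested were called lower and 23.9% higher (49.4% in either direction). The median log2 change over the members was -0.61, against -0.01 over all genes tested and -0.07 over the 6072 genes in the band. Of the 706 genes lowered in both MAS mutants but outside the band, 564 (79.9%) were lower in swp73b, with a median of -1.11, so a fall in swp73b was common to both sets of lowered genes. Equal library totals moved the median of all genes by 0.11 and the members' median to -0.49. The label "only in MAS mutants" thus does not hold against swp73b. The median in swp73b was 65.8% of wt, 7 members were at or under 50%, and 92 of 94 had means below wt. The choice held both MAS mutants at or under 50% and left swp73b free, so the smaller fall in swp73b is no separate result.

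All 3 swp73b libraries lay below all 3 wt libraries for 78 members, and for the other 16 they overlapped. Library overlap was counted for the members alone. With no share over all genes beside it, nothing is read from this count. The largest falls were those of AT2G40960, AT4G30680, AT5G27300, AT1G68080, hemf2 and AT3G01850, which stood at 44.7% to 48.8% of wt. AT2G40960, a single-stranded nucleic acid binding protein with an R3H domain, had 194, 190 and 176 adjusted reads in swp73b and 556, 394 and 307 in wt, a log2 change of -1.12 ± 0.20 (SE, adjusted p = 4.22e-05, limma). The wt libraries ranged widely, and none overlapped with the tight swp73b libraries. AT3G01850, an aldolase-type TIM barrel protein, had 268, 277 and 322 in swp73b and 658, 618 and 531 in wt, a log2 change of -1.06 ± 0.10 (adjusted p = 1.96e-09, limma). AT4G30680, which has the MA3 domain of translation initiation factor eIF4G, had 85.0, 72.3 and 67.3 in swp73b and 194, 136 and 161 in wt, a log2 change of -1.11 ± 0.14 (adjusted p = 2.62e-07, limma).

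Of the 12 most lowered members, all passed the test in swp73b, with log2 changes from -1.08 in AT5G27300 to -0.35 in AT3G62970. The call of AT3G62970 was lost without wt replicate 1 (adjusted p = 0.0565, limma) and with equal totals (adjusted p = 0.0558, limma). That of RBCS2B, with 22509, 17457 and 14255 adjusted reads in swp73b and a log2 change of -0.67 ± 0.17, was lost when only swp73b and wt were fitted (adjusted p = 0.052, limma). WNK6 had 206, 219 and 165 adjusted reads in swp73b and 379, 387 and 388 in wt, a log2 change of -0.98 ± 0.12 (SE, adjusted p = 1.01e-07, limma). MAF3 had 169, 157 and 158 in swp73b, a log2 change of -0.63 ± 0.14 from wt (adjusted p = 0.000363, limma), and MAF1 had 466, 564 and 569 and did not pass (log2 change -0.27 ± 0.13, adjusted p = 0.087, limma). IBM1 fell by 0.64 ± 0.09 on the log2 scale (adjusted p = 2.32e-06, limma) and ELF4 by 0.72 ± 0.17 (adjusted p = 0.000936, limma). The 12 members that did not pass in swp73b included AT1G05720 and AT5G40060, whose means were above wt at 113.3% and 108.7%.

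In bcl7ab, 36 members were lower than wt and 14 higher (limma, adjusted p under 0.05), where 14.2% of all genes were called lower and 16.4% higher (30.5% in either direction). The median log2 change was -0.17 over the members, 0.02 over the 6072 genes in the band and -0.76 over the 706 other lowered genes, of which 57.4% were called lower. When libraries were scaled to equal totals, which moved the median of all genes by -0.17 in this comparison, the split became 49 lower and 7 higher. By libraries, 36 members lay wholly below wt, 17 wholly above and 41 overlapped, again with no share over all genes to set beside these counts. The largest falls were those of AT5G48530, ELF4, AT4G30910 and AT5G22796, and the last was not called without wt replicate 3 or without bcl7ab replicate 1 or 3 (adjusted p = 0.0782, 0.0684 and 0.0509, limma). ELF4 had 140, 111 and 114 adjusted reads in bcl7ab and 208, 213 and 275 in wt, a log2 change of -0.92 ± 0.17 (SE, adjusted p = 0.000137, limma). AT4G30910 had 445, 471 and 551 in bcl7ab and 966, 820 and 883 in wt, a log2 change of -0.86 ± 0.10 (adjusted p = 8.77e-08, limma). AT5G48530 had 102, 78.0 and 109 in bcl7ab and 203, 162 and 202 in wt, a log2 change of -0.97 ± 0.16 (adjusted p = 3.58e-05, limma).

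RBCS2B went the other way in bcl7ab, with 49968, 40294 and 43150 adjusted reads there and 33754, 31431 and 21279 in wt, a log2 change of 0.65 ± 0.17 (SE, adjusted p = 0.0032, limma). All bcl7ab libraries were above all wt libraries. This rise was not particular to RBCS2B. The 32 genes of a photosynthesis list that holds it averaged 100.8% (PSAG) to 166.1% (PRK) of wt in bcl7ab, with RBCS2B at 154.3%. The list was not tested in bcl7ab. APE1 was also higher in bcl7ab, with 3622, 3244 and 3506 adjusted reads there and 2513, 2546 and 1969 in wt, a log2 change of 0.57 ± 0.09 (adjusted p = 1.66e-05, limma). Of the members lower in swp73b, 35 were also lower in bcl7ab, 37 were not called there and 10 were higher. The 35, 37 and 10 share their wt libraries, so the overlap itself is no result.

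In the libraries labelled an3, 1 member passed the test, AT4G16442 of the UPF0497 family, and none was higher, where 5.74% of all genes were called lower and 5.03% higher (10.8% in either direction). It had 240, 280 and 231 adjusted reads in the libraries labelled an3 and 328, 367 and 367 in wt, at 70.8% of wt. At an unadjusted p under 0.05 in limma, 8 members differed, a count made for the members alone and with no share over all genes beside it. The edgeR test on recovered reads called 2. The median log2 change was 0.02, the same as over all genes tested. In libraries, 10 members lay wholly below wt, 4 wholly above and 80 overlapped. Such separation was not counted over all genes, so it is not read as a trait of the members.

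**Figure D3:**
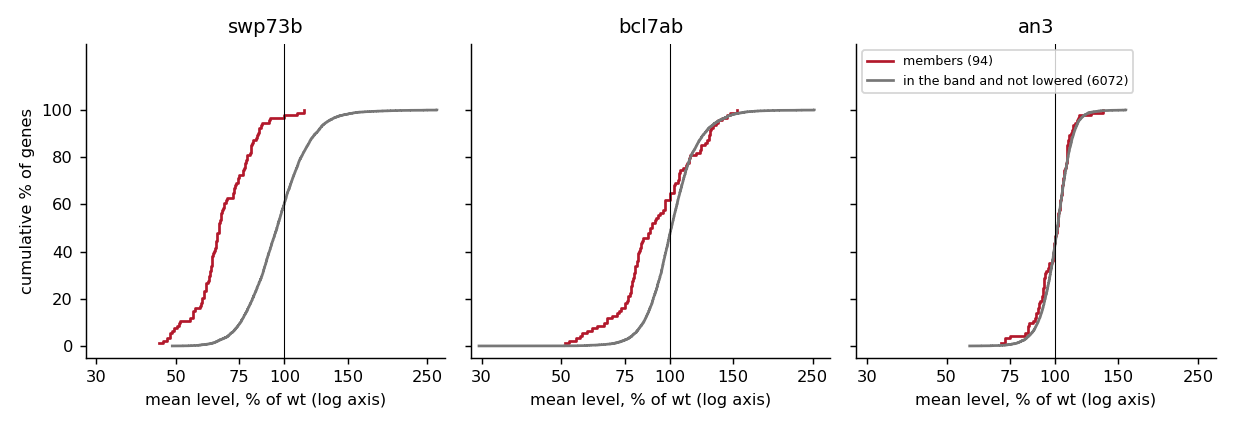
Cumulative share of genes by mean level as a percentage of the wt mean (log axis) in swp73b, bcl7ab and an3, for the 94 members (red) and the 6072 genes in the band and not lowered (grey). The members' curve lies left of the grey one over most of its length in swp73b (medians 65.8% and 95.4%), crosses it in bcl7ab (medians 88.9% and 101.1%) and runs close to it in an3 (medians 101.3% and 101.6%).

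The log2 differences among these 3 mutants use no library that entered the choice. Their SE and adjusted p do, since 1 fit over all 36 libraries estimated the spread of each gene. In swp73b, 77 of the 94 members were lower than in the libraries labelled an3 and none was higher, where 26.1% of all genes were called lower and 24.2% higher (50.3% in either direction; limma, adjusted p under 0.05). The median log2 difference was -0.57 over the members, -0.00 over all genes and -0.09 over the genes in the band. Equal totals moved the median of all genes by 0.18 in this comparison and the members' median to -0.39. AT1G68080, an oxygenase of the 2OG-Fe(II) superfamily, had 64.1, 76.2 and 63.9 adjusted reads in swp73b and 182, 156 and 158 in the libraries labelled an3, a log2 difference of -1.27 ± 0.13 (SE, adjusted p = 2.78e-09, limma). AT5G54090 had 96.2, 106 and 100 in swp73b and 211, 240 and 238 in the libraries labelled an3, a log2 difference of -1.18 ± 0.25 (adjusted p = 0.000248, limma). AT4G30680 (-1.23 ± 0.14, adjusted p = 3.71e-08, limma) and AT5G27300 (-1.19 ± 0.20, adjusted p = 1.99e-05, limma) also stood out by size. In each of these 4 genes the swp73b libraries lay below all libraries labelled an3.

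Against bcl7ab, swp73b was lower for 61 members and higher for 2, where 25.7% of all genes were called lower and 24.2% higher (50% in either direction), with a median log2 difference of -0.40 over the members and 0.02 over all genes (limma, adjusted p under 0.05). With equal library totals, which moved the median of all genes by 0.28, 32 were lower and 8 higher. RBCS2B had the widest gap, at -1.32 ± 0.17 (SE, adjusted p = 1.81e-07, limma), with all swp73b libraries below all bcl7ab libraries. AT4G31530 differed by -0.99 ± 0.10 (adjusted p = 2.47e-09, limma), but 58.2% of its gene model is overlapped by a neighbour on the other strand. Against the libraries labelled an3, bcl7ab was lower for 20 members and higher for 8 (9.86% and 10.6% of all genes, 20.4% in either direction), and for 35 and 2 with equal totals, which moved the median of all genes by -0.10.

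RBCS2B belongs to a list of 32 photosynthesis genes whose other 31 members were tested. In minu12, 18 of the 31 were lower than wt and none higher (24.8% and 24.1% of all genes), and in pms2ab 30 of 31 were lower and none higher (29.8% and 29% of all genes; limma, adjusted p under 0.05). Their median log2 changes were -0.43 and -0.87, where the medians of all genes were -0.00 and -0.02. PSAG, a subunit of photosystem I, averaged 5031 ± 901 adjusted reads in minu12 and 3899 ± 641 in pms2ab, against 9067 ± 1112 in wt (SD, n = 3 each; log2 changes -0.86 ± 0.14 and -1.22 ± 0.14). PSBQ-2, a lumenal subunit of photosystem II, changed by -0.84 ± 0.15 and -1.20 ± 0.15. The fall of these genes was not particular to the MAS mutants. In brm, where they were not tested, the 31 averaged 63.6% (LHCA4) to 114.9% (RBCS1A) of wt, and RBCS1A alone was above wt. LHCA4 and LHCA1 were lower in brm (63.6% and 64.5%) than in minu12 (70.6% and 75.2%), and PSAG was higher (72.6% and 55.5%). Of 5 mesophyll markers (RBCS1A and RBCS3B, which this list also holds, and 3 LHCB genes), 2 were lower in minu12, 4 in pms2ab and 4 in swp73b, and none was higher. Their summed level was 488967 to 707003 in minu12, 372423 to 462902 in pms2ab, 418052 to 524153 in swp73b and 581069 to 870942 in wt. Of 5 guard cell markers, none was called in minu12, 4 were lower in pms2ab and 5 in swp73b. Of 4 trichome markers, 1 was lower in minu12, 3 in pms2ab and 3 in swp73b, and 1 was higher in swp73b. Of 6 xylem markers, none was lower in minu12, 5 in pms2ab and 3 in swp73b, and 1 was higher in minu12. Of 4 shoot meristem markers, 3 were higher in each of the 3 mutants. Of 7 root hair markers, 4 were higher in swp73b, while 1 was lower in minu12 and 2 were lower in pms2ab. The 4 trichome markers summed to 193.7 to 206.6 adjusted reads in pms2ab and 195.1 to 214.1 in swp73b, against 511.8 to 710.8 in wt, and the minu12 libraries, the lowest at 352.7, lay between these ranges. Of 7 root endodermis markers, 4 were lower in pms2ab, 1 was higher in minu12, and 1 was lower and 1 higher in swp73b. Of 3 phloem markers, 2 were lower in both MAS mutants and 1 in swp73b. Of 4 stomatal lineage markers, 2 were higher in minu12, and 2 were lower in pms2ab and in swp73b. Of 4 epidermis markers, 2 were higher in minu12, 2 were higher and 2 lower in pms2ab, and 1 was higher in swp73b. The 2 pollen markers summed to at most 3.6 in these mutants and to 0 in wt. The part of these shifts in the levels of RBCS2B and the other plastid members was not tested.

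ELF4 belongs to a list of 16 clock genes. Of the other 15, 11 were lower in minu12 and none higher, and 13 were lower in pms2ab and 1 higher (limma, adjusted p under 0.05; background shares as above), with median log2 changes of -0.66 and -0.80. The largest falls were those of PRR9, a morning repressor, which averaged 118 ± 14.6 adjusted reads in minu12 and 74.6 ± 15.4 in pms2ab, against 667 ± 122 in wt (SD, n = 3 each; log2 changes -2.48 ± 0.25 and -3.15 ± 0.25). CCA1, the morning MYB factor, fell by 1.31 ± 0.24 and 2.21 ± 0.24 on the log2 scale, FKF1, a blue-light F-box receptor, by 1.7 ± 0.20 and 1.48 ± 0.20, and LCL1 by 0.88 ± 0.15 and 1.62 ± 0.15. In swp73b, 12 of the 15 were lower and none higher. PRR9 and CCA1 had means below wt in all 11 mutants, at 10.3% to 68.2% of wt for PRR9 and 14.3% to 51.3% for CCA1, with the lowest values in brm. No label gives the hour of harvest.

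MAF1 and MAF3 belong to a list of 18 flowering genes, 13 of which were tested beside them. In minu12, 7 were lower and 1 higher, and in pms2ab 9 were lower and 1 higher, where 24.8% and 24.1% of all genes were lower and higher in minu12 and 29.8% and 29% in pms2ab. MAF5, a neighbour of MAF3 in the same cluster, averaged 1.3 ± 1.12 adjusted reads in minu12 and 2.50 ± 1.98 in pms2ab, against 18.16 ± 3.22 in wt (SD, n = 3 each). FLC, the main vernalization-sensitive repressor, was low, at 0.32 ± 0.56 in minu12 and 0.96 ± 1.66 in pms2ab, against 8.24 ± 2.05 in wt. SEP3, a floral organ gene, was the 1 that was higher in both, at 808 ± 33.9 in minu12 and 948 ± 105 in pms2ab, against 145 ± 44.8 in wt, and it reached 1226.5% of wt in brm. MAF5 and FLC had means above wt in all 6 BAS and SAS mutants, at 165.1% to 906.0% and 364.0% to 1114.4% of wt. FT, the mobile flowering signal, averaged 2.27 ± 2.46 and 0.63 ± 0.55, against 10.8 ± 5.17 in wt.

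IBM1 belongs to a list of 18 genes of DNA methylation and silencing. Of the other 17, 6 were lower and 2 higher in minu12, and 8 were lower and 3 higher in pms2ab (24.8% and 24.1% of all genes in minu12, 29.8% and 29% in pms2ab). DML1 (also known as ROS1), a DNA demethylase, averaged 499 ± 55.5 adjusted reads in minu12 and 311 ± 47.6 in pms2ab, against 1112 ± 187 in wt (SD, n = 3 each; log2 changes -1.15 ± 0.14 and -1.83 ± 0.14). MOM, which holds silenced loci off, fell by 0.66 ± 0.11 and 1.08 ± 0.11 on the log2 scale. RDR2, an RNA-dependent RNA polymerase of the small RNA pathway, rose by 0.82 ± 0.11 and 0.69 ± 0.11, and CHR1 (also known as DDM1), a nucleosome remodeller that aids methylation, by 0.73 ± 0.13 and 0.63 ± 0.13. The adjusted p of each named log2 change in these 4 lists was at most 0.000109 in limma.

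Over the 577 genes of 44 lists that were tested and are no members, 155 were lower and 162 higher in minu12, and 226 were lower and 173 higher in pms2ab. Over all genes the shares were 24.8% lower and 24.1% higher in minu12 and 29.8% and 29% in pms2ab, so the lists together were near the background in minu12. The listed genes are not a sample of the genome.

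Where the members lie in the genome was not used to choose them. They were spread over all 5 chromosomes, with 22, 11, 20, 20 and 21 on chromosomes 1 to 5. The 91 protein-coding members had a median of 6 exons, as had the 6044 protein-coding genes in the band, and 4 of them (4.4%) had a single exon, against 6.7% there. The distance to the gene before them was shorter. The median gap to the upstream protein-coding gene was 131 bases for the members, 594 for the genes in the band, 1383 for the 693 protein-coding genes lowered in both MAS mutants but outside the band, and 851 for the 17406 protein-coding genes with a wt mean of at least 50. An upstream gene within 100 bases or overlapping was found for 43 members (47.3%), against 19.1%, 12.6% and 15.6% in the same 3 sets. The gene sets were compared by these shares alone, with no test.

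A gap of 0 to 100 bases to an upstream gene on the same strand was found for 24 members (26.4%), against 8.1% of the genes in the band, 5.8% of the other lowered genes and 6.9% of all genes with a wt mean of at least 50. The same gap to a gene on the opposite strand was found for 8 members (8.8%), against 4.4%, 2.2% and 3.3%. Turned round, members made up 4.7% of the 513 genes in the band with such a same-strand gap and 0.8% of the 2330 genes in the band with a gap over 1000 bases. Genes that are no members, in or out of the band, did not show this order. Of the 1182 with such a same-strand gap, 3.4% were at or under 0.5 in both MAS mutants. With a gap over 1000 bases it was 5.1% of 8059. The larger share at short gaps was thus seen inside the band alone. The distance to the downstream gene differed less, with a median of 93 bases for the members and 165 for the genes in the band, and 52.7% and 44.1% within 100 bases.

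**Figure D4:**
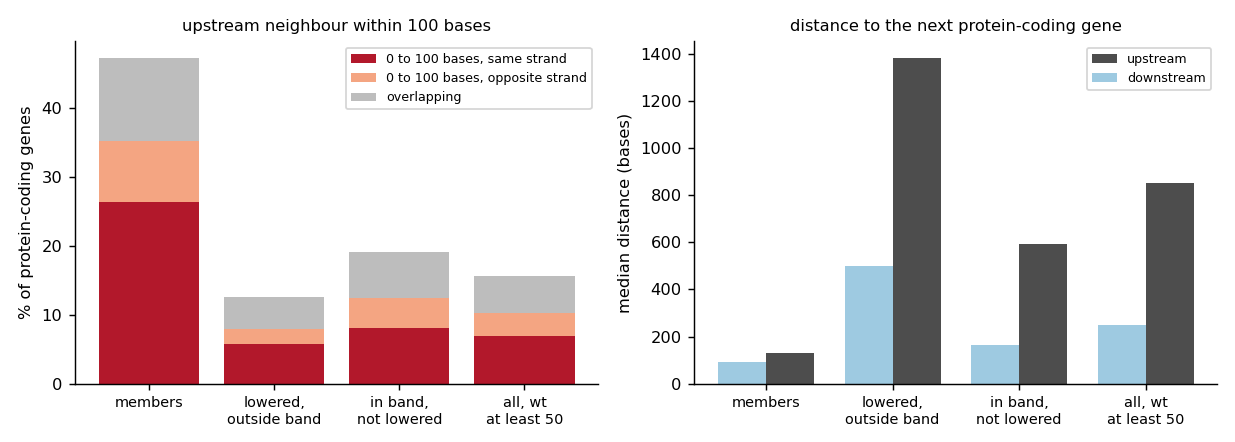
Left, percentage of protein-coding genes whose upstream protein-coding neighbour overlaps or lies 0 to 100 bases away, by strand, for the 94 genes' 91 protein-coding members, the genes lowered in both MAS mutants outside the band, the genes in the band, and all with a wt mean of at least 50; right, median distance in bases to the next protein-coding gene upstream (dark) and downstream (light). The members have the highest share on the left (47.3%) and the shortest median upstream distance on the right (131 bases).

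Calls among the 24 upstream genes went both ways, and more of them were higher than lower. In minu12, 4 of them were lower and 10 higher than wt, and in pms2ab 5 were lower and 12 higher (limma, adjusted p under 0.05; 24.8% and 24.1% of all genes in minu12, 29.8% and 29% in pms2ab). In swp73b, 3 were lower and 9 higher (25.5% and 23.9% of all genes). None of the 24 was a member, and 1, PEPR1, an immune receptor kinase 12 bases before AT1G73090, was at or under 0.5 in both MAS mutants (0.44 and 0.46). PEPR1 was low in all 11 mutants, at 0.36 to 0.61 of wt.

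NAC044, a transcription factor known from the DNA damage response, ends 92 bases before CDC48C. It had 348, 302 and 312 adjusted reads in minu12, 496, 430 and 478 in pms2ab and 193, 227 and 218 in swp73b, against 14.6, 31.1 and 22.5 in wt. Its log2 changes were 3.82 ± 0.24, 4.36 ± 0.24 and 3.23 ± 0.24 (SE, limma, adjusted p = 2.87e-13, 1.2e-14 and 3.67e-11). CDC48C itself had 185, 163 and 184 in minu12, 190, 231 and 209 in pms2ab and 375, 344 and 351 in swp73b, against 452, 489 and 380 in wt. In every library of these 3 mutants NAC044 lay above, and CDC48C below, all wt libraries. NAC044 also averaged 3.88 times wt in brm and 2.02 times wt in swi3d, where CDC48C was held in the band. In the remaining BAS and SAS mutants it was at 1.02 to 1.18 times wt, and none of these levels was tested.

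AT3G18760, of a translation factor family, ends 63 bases before WNK6. It had 433, 448 and 473 adjusted reads in minu12 and 551, 532 and 569 in pms2ab, against 214, 222 and 274 in wt, with log2 changes of 0.94 ± 0.13 and 1.23 ± 0.13 (SE, limma, adjusted p = 1.01e-06 and 4.89e-09). PBA1, a proteasome subunit gene 2 bases before AT4G31310, changed by 0.40 ± 0.08 and 0.82 ± 0.08 (adjusted p = 0.000165 and 9.42e-10, limma), and RPL23AA, a ribosomal protein gene 56 bases before PnsL1, by 0.43 ± 0.12 and 0.69 ± 0.12 (adjusted p = 0.00343 and 1.15e-05, limma). GAUT14, before MUB2, changed by 0.43 ± 0.10 and 0.67 ± 0.10, and EMB3131, before AT4G20760, by 0.96 ± 0.13 and 0.61 ± 0.13 (minu12 and pms2ab, SE, limma). AT1G09290, before AT1G09280, was lower in both, at -0.73 ± 0.10 and -0.92 ± 0.10, and AT5G27820, before AT5G27830, was higher in pms2ab (0.79 ± 0.15). EIF3A, before AT4G11410, averaged 4550 ± 90.13 in minu12 and 4853 ± 220 in pms2ab, against 4205 ± 243 in wt (SD, n = 3 each), and did not pass in minu12 (adjusted p = 0.135, limma) but did in pms2ab (log2 change 0.21 ± 0.06, adjusted p = 0.00592) and in swp73b (0.21 ± 0.06, adjusted p = 0.00744). AT5G42235, before scpl42, had 5.8, 1.9 and 8.3 adjusted reads in minu12 and 21.2, 12.0 and 13.9 in pms2ab, against 0, 1.0 and 0 in wt. The upstream genes of this paragraph also averaged above wt in brm, where the members were held in the band. They ranged there from 1.15 (GAUT14) to 1.97 (AT3G18760) times wt, with AT5G42235, near the floor, at 6.85. These levels in brm were not tested.

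**Figure D5:**
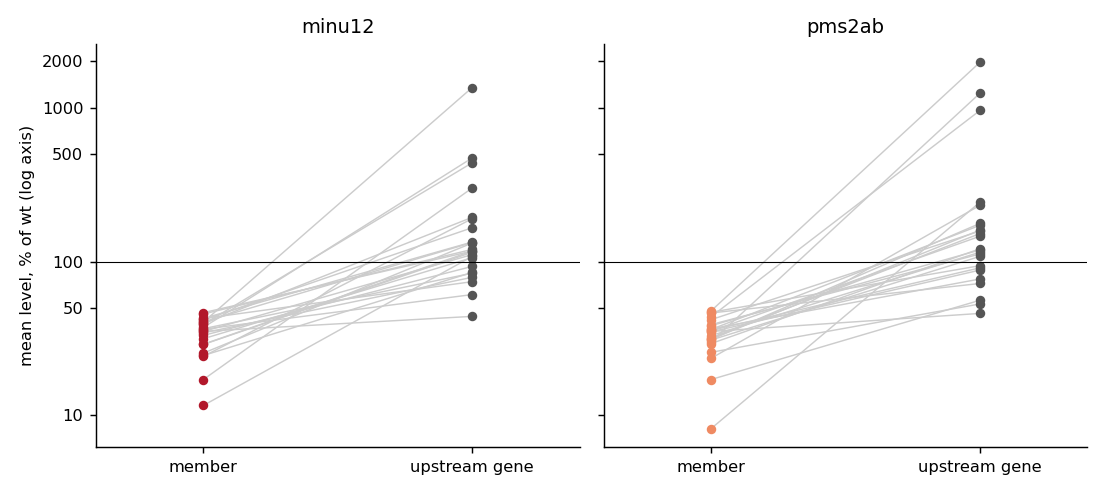
Mean level as a percentage of wt (log axis) of the 24 members whose same-strand upstream neighbour ends 0 to 100 bases before them (left points) and of that neighbour (right points), joined by a line, in minu12 and in pms2ab. All members lie under 50% by choice, and the neighbours range from 0.44 to 13.54 times wt in minu12 and from 0.46 to 19.75 times wt in pms2ab.

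Nothing read here says whether strand was used in the counting, so reads of overlapping genes cannot be told apart. Of the 94 members, 40 overlap another gene model and 35 overlap one on the other strand. For 2 members, AT1G27921 (83.7%) and AT4G31530 (58.2%), over 50% of the model is shared with 1 neighbour, and their values are uncertain on that account. The values of APE1 (32.8%), AT3G10405 (38.2%) and CPISCA (41.8%) carry the same doubt to a lesser degree.

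Short motifs were counted on both strands in the 300-base window from 250 before to 50 after each start, over the 94 members, the 6072 genes in the band and all 32548 loci. The TATA-box letters TATAAA were in 40.4%, 48.7% and 50.6% of the windows. The site II letters TGGGCC, known from genes of ribosomes and mitochondria, were in 10.6%, 25.3% and 14.3%, and in 7.8% of the 706 genes lowered outside the band. The telo-box AAACCCTA was in 6.4%, 4.8% and 6.2%, the G-box CACGTG in 8.5%, 8.1% and 7.1%, and the GATAA core in 68.1%, 61.4% and 60.5%. An upstream gene within 100 bases or overlapping was found for 47.3% of the protein-coding members and 19.1% of those in the band. In such windows many of the bases before the start lie inside that gene, so the sets compare unlike sequence. These letters describe the windows and are not evidence of binding.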

How the data were processed

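Total RNA of 36 seedling libraries gave single-end 50-bp reads from a BGISEQ500 instrument, per the labels' protocols. HISAT2, edgeR and the TAIR10 genome are named in the submitters' processing notes; their versions, the annotation and how reads were counted are not stated there. The deposited signal values have the form of edgeR pseudo-counts, that is reads adjusted to a common library size. Inverting that adjustment at a fitted dispersion of 0.0127 gave whole reads for 99.998% of 1171728 values (tolerance 1e-04, 27 unmatched). Of 66 value columns, 30 repeat the wt values without difference, and 0 columns were left unused.

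The planned count test did not suit normalized values, so limma 3.58.1 (R 4.3.3) with a trend on log2(value + 1) was the main test: 1 fit over 36 libraries, a term per genotype, 23297 genes with a mean of at least 1, Benjamini-Hochberg adjustment within each comparison, and a call at an adjusted p under 0.05. Fold changes on this scale understate changes of low genes. edgeR 4.0.16 on recovered reads was added after seeing the data and called the same number of members or within 2 in each comparison. Simulated data with known changes were tried for swp73b against wt alone, with a dispersion of 0.0127 for every gene. That trial is simpler than the data and does not check the other comparisons.

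The members and the gene lists were chosen with earlier results of these data known. Of 650 list entries, 604 matched 1 locus. Described genes follow a rule: the 12 most lowered, the 8 most abundant, the 6 largest called changes in swp73b against wt, 4 each in bcl7ab and an3 against wt and in swp73b against an3, families or lists with several members, neighbours, genes at the thresholds, and up to 4 genes per list called in both MAS mutants. Upstream genes, plastid members and others outside it were named after their values were seen. All 32548 loci were joined by locus tag to the RefSeq annotation of TAIR10.1; the deposited tables hold no coordinates, and positions and sequences are those of TAIR10.1. No protein sequences were used here. Python 3.11.15 and matplotlib 3.10.9 drew the figures.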

Additional observations from a re-analysis of the deposited data

Results flagged for a closer look

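Of the members lower in swp73b than in wt, 10 were higher in bcl7ab than in wt. In each of them swp73b was also lower than bcl7ab (limma, adjusted p under 0.05). That follows from calls on opposite sides of the same wt libraries and adds no support. The share of all genes with such opposite calls was not counted. In bcl7ab the genes of the photosynthesis list that holds RBCS2B averaged 100.8% to 166.1% of wt, so its rise there is not particular to it. The log2 differences of swp73b from bcl7ab were -1.32 for RBCS2B, -1.07 for AT5G22620, -0.99 for AT4G31530, -0.95 for AT1G72640, -0.92 for AT4G20760, -0.88 for AT4G31310, -0.80 for APE1, -0.73 for AT5G27560, -0.66 for AT1G18170 and -0.65 for AT5G06580. With median-ratio scaling, and with edgeR on recovered reads, the same 10 genes had opposite calls. With equal library totals 3 of the 10 did, namely RBCS2B, AT4G31530 and AT5G27560. Groups of 3 libraries are too small for the check on single outlying libraries.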

How the results depend on the processing

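The number of members was 94, and 85 to 98 under the other scalings, centre and added constant, with 70 of the 94 shared under equal totals and 72 under medians; leaving out single libraries gave 78 to 108, and leaving the libraries labelled syd out of the band, chosen after seeing the data, gave 100. Members called numbered 82 in swp73b against wt (74 to 82 with 1 library left out), 50 in bcl7ab against wt (34 to 49), 1 in an3 against wt (1 to 3), 77 in swp73b against an3 (69 to 75), 63 in swp73b against bcl7ab (52 to 58) and 28 in bcl7ab against an3 (20 to 25). Listed genes called numbered 317 in minu12 (266 to 330) and 399 in pms2ab (371 to 388). Asking also for a 2-fold change left 7, 0, 0, 10, 6 and 0 members in the same order, and 115 and 178 listed genes. In an3 against wt, 3 members were called without wt replicate 1 or 2, and 2 without wt replicate 3 or an3 replicate 2. Equal totals gave 2 members in an3 against wt and 40 in swp73b against bcl7ab, edgeR gave 2 in an3 against wt, and fits of only the 2 groups gave 32 in bcl7ab against wt. The cause was not tested. Of 416 pairs of a named change and an alternative, 394 stayed on the same side, 22 lost the call and 0 reversed; 16 of the 22 were under the 2-fold threshold. 

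The replicate numbers did not pair the samples: same-numbered libraries correlated in their deviations from -0.151 to 0.143 over the 8 comparisons, and in no comparison did all 3 pairs pass 0.1, although in bcl7ab against wt every library correlated best with its own number. With the replicate block, 83, 48, 2, 78, 64 and 28 members and 325 and 398 listed genes were called.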

Other observations

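The mirrored choice, at least 2 times wt in both MAS mutants and in the band in the 6 others, held 23 genes, against the 94 lowered ones. MINU2 (listed as CHR23) averaged 1970 ± 100.9 adjusted reads in pms2ab and 444 ± 34.0 in wt (SD, n = 3 each), a log2 change of 2.15 ± 0.08 (SE, adjusted p = 1.62e-17, limma). It was also high in bcl7ab (345.7% of wt) and swp73b (240.7%), and stood at 65.5% to 96.1% in an3 and the BAS and SAS mutants. MINU1 stood at 173.2% of wt in pms2ab, 227.3% in bcl7ab and 154.6% in swp73b. Of the 11 SWI/SNF subunit genes tested, 2 were lower and 4 higher in minu12, the lower ones being the mutated MINU1 and MINU2, and 1 was lower and 6 were higher in pms2ab.

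Seed storage and oil-body markers were higher in both MAS mutants (5 of 5 tested in each) and uneven between libraries, with summed levels of 123 to 7841 adjusted reads in minu12, 828 to 2267 in pms2ab, 26.5 to 4994 in swp73b and 12.5 to 20 in wt. Their part in the members' levels was not tested.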
